A study of Mus musculus with 8 samples.

Results

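The 41 genes described here act in DNA damage repair, and were taken by gene symbol from the table of all 33971 genes: 16 genes of homologous recombination, 10 Fanconi anemia genes, 6 genes of checkpoint signaling, 1 of mismatch repair, 3 of single-strand break repair and 5 of end joining. They were measured by bulk poly-A RNA-seq in whole brains of wild-type mouse embryos at E14.5, with 4 brains from dams fed a choline-deficient diet (CDD) from the day of mating and 4 from dams fed a normal chow diet (ND). No strain, litter or dam was given for a brain, so the p-values measure the spread between these 8 brains only. All 41 symbols were found once in the table, and all 41 passed the filter on low counts. Each gene was counted in 1 role group only, whatever its other roles, and the Fanconi group holds the 10 genes with *Fanc* symbols.

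Cells that copy their DNA meet breaks, cross-links and stalled forks, and different lesions are handled by different pathways. In homologous recombination, a broken end is resected to single-stranded DNA, and with the help of BRCA1 and BRCA2 the lost sequence is copied from the sister chromatid, whereas end joining ligates broken ends without a template and also serves cells that no longer divide. The Fanconi anemia proteins unhook interstrand cross-links, mismatch repair corrects errors of replication, and checkpoint kinases hold the cycle while repair proceeds. The embryonic brain at midgestation holds dividing progenitors beside postmitotic neurons.

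Libraries held 31770217 to 43121170 gene counts. The summed level of 12 markers of postmitotic neurons was 7540.5 to 8362 CPM (gene counts scaled to library size) in CDD brains and 7860 to 8255 CPM in ND brains, and that of 12 neural progenitor markers was 1901 to 2080 and 1697 to 1815 CPM. The CDD brain of replicate 2 stood apart in *Hox* genes of the caudal hindbrain and spinal cord, with 4770 counts over 14 genes against 3 to 94 in the other 7 brains. Counts of called genes without this brain are given with the groups below.

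Of the 41 repair genes, 11 were higher in CDD brains and 0 were lower at an adjusted p under 0.05 (edgeR quasi-likelihood test with Benjamini-Hochberg adjustment over 19367 genes). Over all genes tested, 8.83% were called, 4.24% higher and 4.59% lower. The 11 genes were *Palb2*, *Rad54l*, *Rbbp8* and *Blm* of homologous recombination, *Fancd2* and *Fanci* of the Fanconi pathway, *Chek1*, *Topbp1* and *Clspn* of checkpoint signaling, the mismatch gene *Msh6* and the single-strand break gene *Parp1*. The differences were small, from 11.8% for *Msh6* to 32.2% for *Palb2*, and all 41 members lay within 1.5-fold. A log2 fold change (CDD over ND) above 0 was seen for 33 of 41 members, with a median of 0.15 against -0.00 over all genes tested. Without adjustment, 18 members had a p under 0.05 in the direction of CDD, where 11.8% of all genes did, and 1 member, *Fancg*, had one in the direction of ND. For 10 members the lowest CDD brain exceeded the highest ND brain, and for 0 the order was the opposite, against 7.65% and 7.39% of all genes. In whole-brain RNA, more cells that express a gene and more RNA per cell cannot be told apart.

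The count of called members depended on single brains. It was 12 without CDD replicate 2, where 3.15% of all genes tested were called higher, and 9 of the 12 were among the 11. It fell to 6 without CDD replicate 1 (3.13% of all genes) and to 2 without ND replicate 1 (1.52%). It was 3 without ND replicate 3 (1.04%) and 3 without ND replicate 4 (1.42%). All members called in these 5 fits were higher in CDD.

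**Figure D1:**
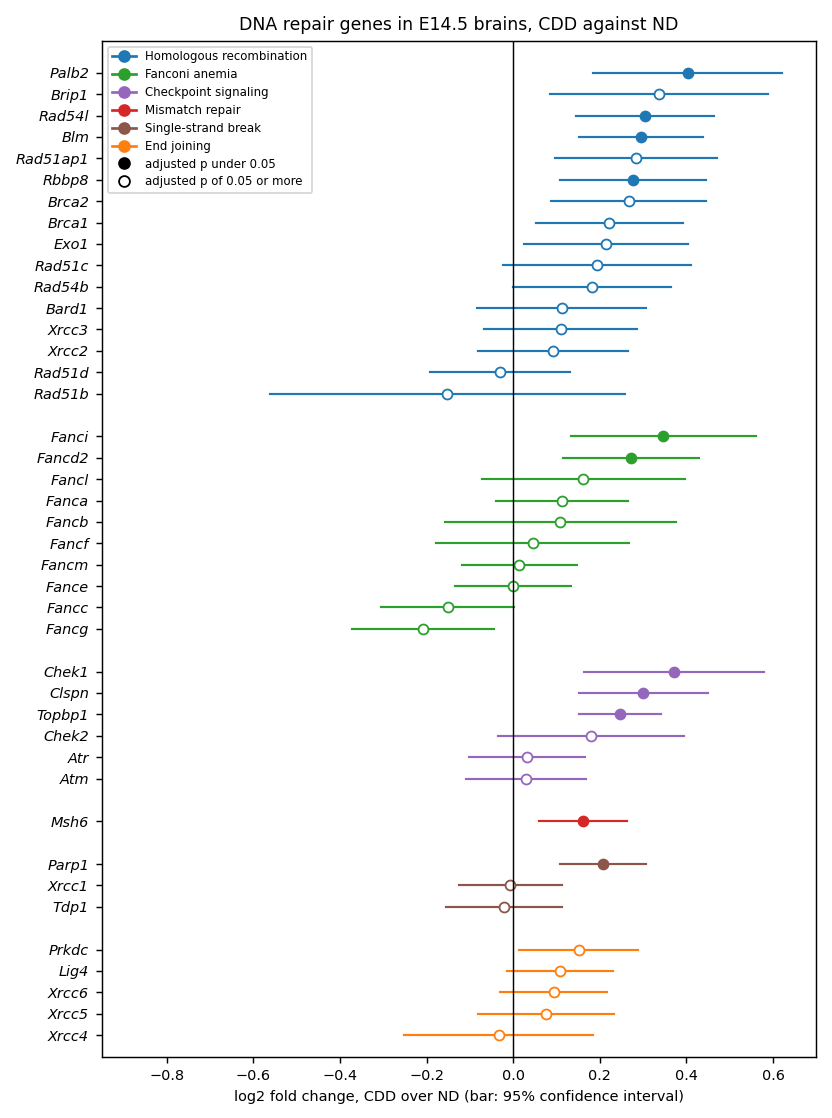
Log2 fold change of each of the 41 repair genes, CDD over ND (x axis), by role, with the 95% confidence interval as a bar. Filled points mark the 11 genes with an adjusted p under 0.05, all to the right of 0.

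Promoter windows (250 bases before to 50 after the transcription start, RefSeq, GRCm38.p6) were read for 34 of the 41 members, because many S-phase genes carry E2F-type sites near the start. The letters TTTCCCGC, TTTGGCGC, TTTCGCGC or TTTGCCGC were searched on both strands. None of these 4 strings contains another. At least 1 of them was present in 9 of 34 members, or 26.5%. The share was 2.60% of all 27025 genes with a window and 4.32% of the 12823 tested genes with a window. It was present in 3 of 9 called members with a window (*Topbp1*, *Clspn* and *Msh6*) and in 6 of 25 members that were not called (*Bard1*, *Brca2*, *Chek2*, *Fancg*, *Rad51c* and *Xrcc6*). The stretch around the match is shown for the 3 called genes and for 2 that were not called, as the letters occur in both. Capitals mark the match, and sequences are written 5′ to 3′ on the gene's strand.
Topbp1 (chr9:103305162-103305241, plus strand): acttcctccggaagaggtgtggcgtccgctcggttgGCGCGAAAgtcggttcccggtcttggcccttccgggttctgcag
Clspn (chr4:126556990-126557019, plus strand): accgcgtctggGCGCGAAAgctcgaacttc
Msh6 (chr17:87975054-87975083, plus strand): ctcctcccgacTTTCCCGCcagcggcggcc
Fancg (chr4:43010310-43010389, minus strand): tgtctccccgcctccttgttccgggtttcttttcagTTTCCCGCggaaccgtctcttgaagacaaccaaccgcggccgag
Xrcc6 (chr15:82016287-82016366, plus strand): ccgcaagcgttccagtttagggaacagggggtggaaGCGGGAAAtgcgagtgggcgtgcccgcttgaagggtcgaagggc
The match lay 129 bases upstream of the start in *Topbp1*, 52 upstream in *Fancg* and 46 upstream in *Xrcc6*, and 21 and 15 bases downstream in *Clspn* and *Msh6*. *Topbp1* and *Clspn* carried the same 8 letters, GCGCGAAA. A match is a description of letters and shows no binding.

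The levels of the members, compared per transcript length as FPKM over all 8 brains, covered a wide range around a median of 2.52 FPKM. *Parp1*, which senses DNA breaks and marks them with poly-ADP-ribose, was the highest at 41.3 ± 3.77 FPKM (SD, n = 8). *Msh6*, which takes part in the recognition of mismatches, followed at 16.6 ± 1.31 FPKM, and *Rad51b* was the lowest at 0.449 ± 0.092 FPKM. *Parp1*, *Msh6* and *Rad51b* were each separated from their neighbours in this order, since no brain overlapped. The ranges over brains overlapped for 37 of the 40 neighbouring pairs, so that the order within the middle of the list was not resolved.

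**Figure D2:**
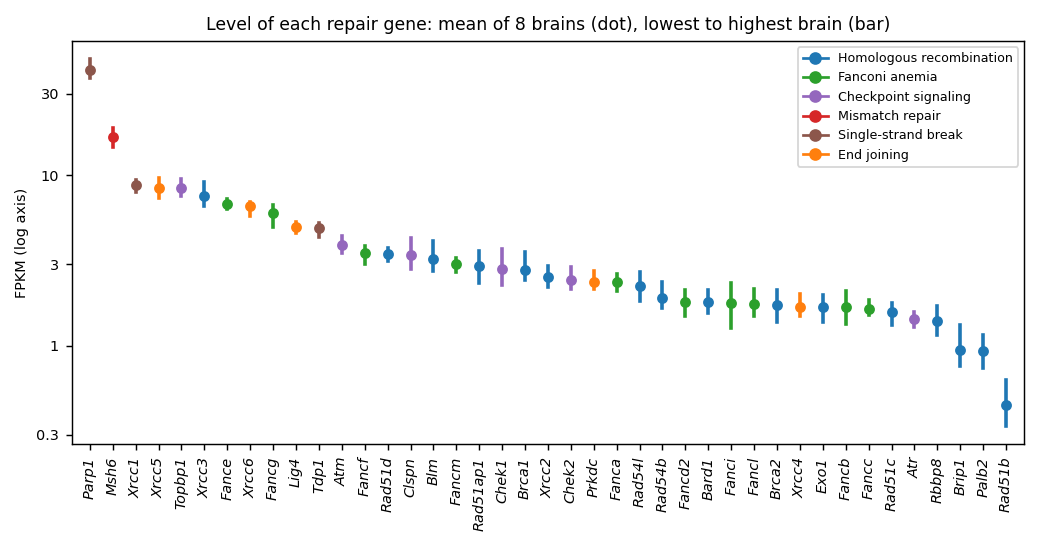
Level of each repair gene in FPKM on a log axis (dot, mean of 8 brains; bar, lowest to highest brain), ordered from high to low and colored by role. *Parp1* at 41.3 and *Msh6* at 16.6 FPKM stand above the rest, and *Rad51b* at 0.449 FPKM stands below.

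Homologous recombination had 4 of 16 genes called higher and 0 lower, with a median log2 fold change of 0.22 and 14 genes above 0. Without CDD replicate 2, 5 were called higher, with a median of 0.26. *Palb2*, whose protein joins BRCA1 to BRCA2, had the largest fold change of the 41 members. It was at 8.36, 6.69, 8.48 and 7.66 CPM in CDD brains 1 to 4 and at 5.44, 5.63, 6.42 and 6.12 CPM in ND brains 1 to 4. The groups did not overlap, and *Palb2* was 32.2% higher in CDD (log2 fold change 0.40, SE 0.104, adjusted p = 0.0222, edgeR). This call was lost without CDD replicate 1, ND replicate 1 or ND replicate 4, with adjusted p of 0.0565, 0.0825 and 0.0588.

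*Rad54l* encodes RAD54, a motor that helps pair the broken strand with its template. Its level was 19.3, 17.0, 18.8 and 20.9 CPM in CDD brains and 14.8, 16.5, 14.2 and 16.1 CPM in ND brains, again without overlap (log2 fold change 0.30, SE 0.076, adjusted p = 0.0184, edgeR). Leaving out ND replicate 1 (adjusted p = 0.0706) or ND replicate 3 (0.0938) ended the call. *Blm*, a RecQ helicase that dissolves recombination intermediates, was also separate between the diets. It was at 30.6, 30.02, 28.4 and 35.7 CPM with CDD and 25.1, 26.3, 24.3 and 25.8 CPM with ND (log2 fold change 0.30, SE 0.0684, adjusted p = 0.0126, edgeR), and was not called once ND replicate 1 (0.0505) or ND replicate 3 (0.0689) was left out. *Rbbp8*, which encodes the resection factor CtIP, overlapped between diets. CDD brains were at 17.9, 19.2, 18.4 and 21.2 CPM and ND brains at 15.1, 18.4, 15.3 and 14.6 CPM, where ND replicate 2 reached the CDD range (log2 fold change 0.28, SE 0.0805, adjusted p = 0.0384, edgeR). This call was lost without CDD replicate 2 or 4, or ND replicate 1, 3 or 4, with adjusted p from 0.0676 to 0.14.

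Several other genes of the central recombination steps had fold changes of similar size that did not pass the adjusted test. In *Brip1*, a helicase bound to BRCA1, the log2 fold change was 0.34 (adjusted p = 0.0881, edgeR). *Rad51ap1*, which stimulates strand pairing, had 0.28 (0.0532). *Brca2* had 0.27 (0.0583), *Brca1* 0.22 (0.094) and the resection nuclease *Exo1* 0.21 (0.147). All 4 of *Brip1*, *Rad51ap1*, *Brca2* and *Brca1* passed the threshold with no filter on low counts (adjusted p = 0.0309, 0.012, 0.00376 and 0.024). *Brca2* also passed with DESeq2 (0.0337) and without CDD replicate 3 (0.00649), *Brip1* without CDD replicate 3 (0.0157) and *Brca1* without CDD replicate 2 (0.0487). *Rad51ap1* was past the threshold in 5 of the 8 other settings and without CDD replicate 2, CDD replicate 4 or ND replicate 1. *Rad54b* had 0.18 and *Bard1*, the partner of *Brca1*, 0.11. The 5 genes *Rad51b*, *Rad51c*, *Rad51d*, *Xrcc2* and *Xrcc3*, whose related proteins act together in complexes that assist strand exchange, had 0 genes called, a median of 0.09 and a range from -0.15 for *Rad51b* to 0.19 for *Rad51c*. The remaining 11 recombination genes were all above 0, with a median of 0.28 and the 4 calls among them. The difference between these 5 and the other recombination genes was not tested.

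Of the 10 genes counted as Fanconi, 2 were called higher, both of them the substrate pair of the pathway. The same 2 were called without CDD replicate 2. *Fancd2* and *Fanci* encode a heterodimer that clamps onto DNA at cross-links once the core complex has ubiquitinated it. *Fancd2* was at 16.5, 14.49, 15.6 and 16.7 CPM in CDD brains and at 13.0, 14.0, 11.97 and 13.3 CPM in ND brains, without overlap (log2 fold change 0.27, SE 0.0754, adjusted p = 0.0308, edgeR). *Fanci* was at 11.4, 10.5, 10.8 and 13.4 CPM with CDD and 7.37, 9.85, 9.89 and 9.16 CPM with ND, also without overlap (log2 fold change 0.35, SE 0.102, adjusted p = 0.0399, edgeR). Both calls were lost without CDD replicate 1 or 4, or ND replicate 1, 3 or 4, with adjusted p of 0.0559 to 0.138 for *Fancd2* and 0.0709 to 0.147 for *Fanci*. Positions in the table overlap those of another gene for 24 of the 41 members. On the opposite strand, *Fanci* shares 4034 bases with *Polg*, *Rad54l* 2780 with *Lrrc41*, *Xrcc3* 4653 with *Klc1*, *Fancc* 41054 with *Aopep*, *Fanca* 1446 with *Zfp276*, *Xrcc4* 486 with *Tmem167* and *Fancf* 253 with *Gas2*, and each of these neighbours had more counts than the member. *Rad54b* shares 7927 bases with *Fsbp* on the same strand. Whether counting used strand was not given in the sources used here, so these counts are uncertain to that extent.

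The 8 genes of the core complex and its anchor, which place the ubiquitin, had 0 called and a median log2 fold change of 0.03. Their values ran from 0.16 for *Fancl*, the ubiquitin ligase subunit, through 0.11 for *Fanca* and for *Fancb*, 0.04 for *Fancf*, 0.01 for the translocase *Fancm*, -0.00 for *Fance* and -0.15 for *Fancc*, to -0.21 for *Fancg* (adjusted p = 0.106, edgeR). *Fancg* was called lower with no filter on low counts (0.0483) and without CDD replicate 3 (0.0209). In each brain, the score of a gene group was taken by centring the log2 CPM of each gene on its mean over the 8 brains and averaging over the genes. The score of *Fancd2* and *Fanci* minus that of the core genes was 0.12, 0.02, 0.12 and 0.35 in CDD brains and -0.23, -0.06, -0.19 and -0.12 in ND brains. The diets did not overlap in this difference, whose means were 0.15 ± 0.141 and -0.15 ± 0.0737 (SD, n = 4 each). No test was made of it, as the genes were grouped with their results known.

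**Figure D3:**
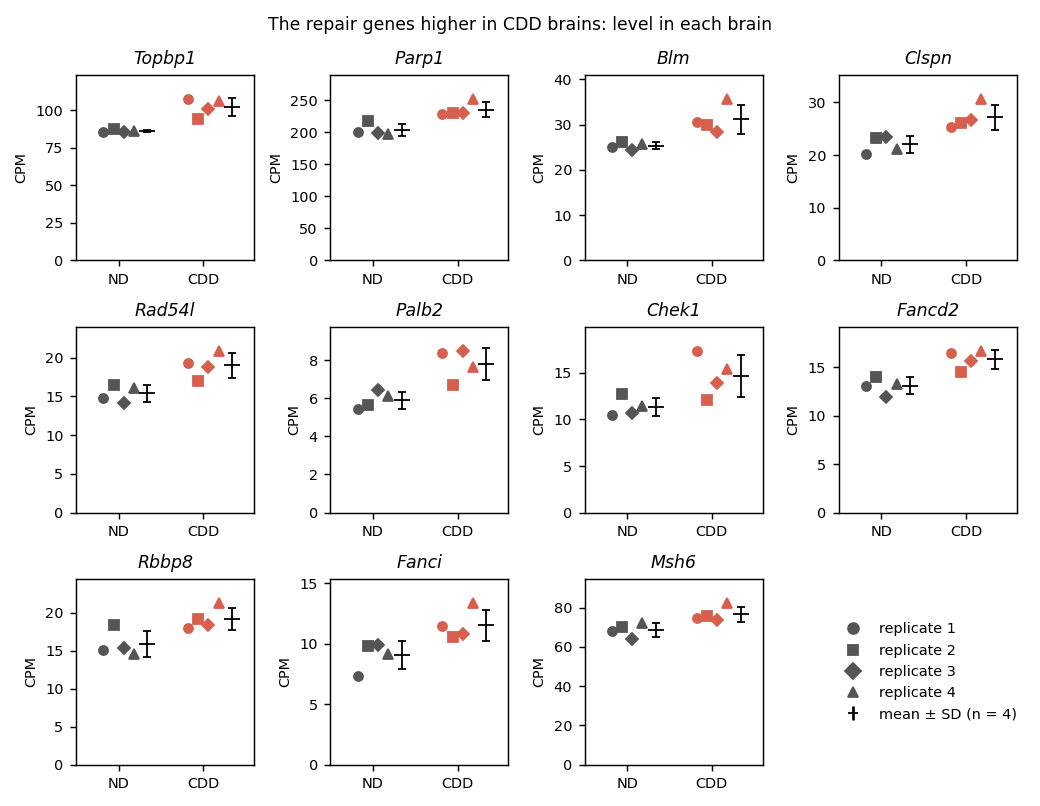
Level in CPM of the 11 repair genes called higher in CDD, in each ND (gray) and CDD (red) brain, with symbols for the replicate and mean ± SD of 4 brains per diet. The diets overlap for *Rbbp8* and *Chek1*, and are separate for the other 9 genes.

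Checkpoint signaling had 3 of 6 genes called higher, and the same 3 without CDD replicate 2. *Topbp1*, which activates the ATR kinase at stalled forks, was at 107.7, 94.4, 101.0 and 106.1 CPM in CDD brains and within the narrow range of 85.3 to 87.5 CPM in ND brains (85.9, 87.5, 85.3 and 86.2). It had the smallest adjusted p of the 41 members (log2 fold change 0.25, SE 0.0451, adjusted p = 0.00317, edgeR), and was the only member called without each of the 8 brains in turn. *Clspn* encodes Claspin, the adaptor that brings CHK1 to ATR, and was at 25.3, 26.1, 26.6 and 30.7 CPM against 20.3, 23.2, 23.5 and 21.2 CPM, without overlap (log2 fold change 0.30, SE 0.0716, adjusted p = 0.0145, edgeR). It was not called once ND replicate 1 (0.0713) or ND replicate 4 (0.0619) was left out. *Chek1*, the gene of CHK1 itself, was at 17.4, 12.1, 13.9 and 15.4 CPM in CDD brains and 10.5, 12.7, 10.7 and 11.5 CPM in ND brains. The groups overlapped through replicate 2 of both diets (log2 fold change 0.37, SE 0.0993, adjusted p = 0.0267, edgeR), and the call was lost without CDD replicate 1 or ND replicate 1, 3 or 4, with adjusted p from 0.0748 to 0.106.

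The kinases at the top of this signaling had fold changes near 0. *Atm*, which responds to double-strand breaks, had a log2 fold change of 0.03 with a 95% interval of -0.11 to 0.17, and *Atr*, which responds to single-stranded DNA, had 0.03 with an interval of -0.10 to 0.17. The intervals of both end below the 0.25 estimated for *Topbp1*, but overlap the interval of *Topbp1* itself, 0.15 to 0.34. The difference between these genes was not tested. *Chek2*, the kinase downstream of ATM, had 0.18 (-0.03 to 0.40). The score of *Chek1*, *Chek2*, *Topbp1* and *Clspn* minus that of *Atm* and *Atr* was 0.12 ± 0.101 in CDD brains and -0.12 ± 0.129 in ND brains (SD, n = 4 each), with overlap between diets.

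*Msh6*, the mismatch gene, was at 74.6, 75.9, 73.9 and 82.3 CPM in CDD brains and 68.3, 70.0, 64.0 and 72.0 CPM in ND brains. The groups did not overlap, but the difference of 11.8% was the smallest among the called genes (log2 fold change 0.16, SE 0.0487, adjusted p = 0.0454, edgeR). The call held without CDD replicate 3 and was lost without any other single brain (adjusted p from 0.0593 to 0.21), with upper-quartile normalization (0.0504) and with limma-voom (0.0552).

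Of the 3 single-strand break genes, *Parp1* was higher in CDD brains, at 228, 229.7, 229.5 and 253 CPM against 201, 217, 199 and 198 CPM (log2 fold change 0.21, SE 0.0474, adjusted p = 0.012, edgeR). The groups did not overlap, and the call was lost without ND replicate 1, 3 or 4 (adjusted p of 0.0547, 0.0691 and 0.0646). The scaffold *Xrcc1*, which PARP1 activity recruits, was at 53.8, 46.4, 54.4 and 49.9 CPM with CDD and 51.5, 53.8, 52.4 and 47.9 CPM with ND. *Tdp1*, which removes trapped topoisomerase I from DNA, was at 40.7, 37.6, 42.1 and 34.7 CPM with CDD and 37.2, 42.1, 38.7 and 39.3 CPM with ND. Both overlapped widely, with log2 fold changes of -0.01 (95% interval -0.13 to 0.11) for *Xrcc1* and -0.02 (-0.15 to 0.11) for *Tdp1*, and the sign of each turned when single brains were left out.

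End joining had 0 of 5 genes called, with a median log2 fold change of 0.09. *Prkdc*, which encodes the catalytic subunit of DNA-PK, was at 34.1, 28.6, 32.5 and 35.9 CPM in CDD brains and 30.5, 28.5, 29.95 and 29.0 CPM in ND brains (log2 fold change 0.15, SE 0.0661, adjusted p = 0.166, edgeR). CDD replicate 2 lay among the ND brains, and without it *Prkdc* passed the threshold (adjusted p = 0.0443). *Lig4*, the ligase of the pathway, was at 27.8, 27.4, 25.9 and 26.5 CPM against 24.0, 24.6, 26.4 and 24.8 CPM (log2 fold change 0.11, SE 0.0584, adjusted p = 0.275, edgeR), where ND replicate 3 reached the CDD range. *Xrcc6*, the gene of Ku70, was at 30.4, 30.2, 31.04 and 30.01 CPM against 28.8, 25.8, 29.5 and 29.9 CPM. The diets were separate for *Xrcc6*, by a small margin (log2 fold change 0.09, SE 0.0593, adjusted p = 0.365, edgeR), and *Xrcc6* overlaps *Desi1* on the opposite strand over 41340 bases.

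*Xrcc5*, the gene of Ku80, was at 22.9, 22.6, 18.8 and 24.4 CPM in CDD brains and 20.9, 21.6, 19.9 and 21.7 CPM in ND brains (log2 fold change 0.08, SE 0.0748, adjusted p = 0.59, edgeR). *Xrcc4*, which holds LIG4 at the break, was at 7.40, 6.75, 6.60 and 7.54 CPM against 8.48, 7.002, 7.08 and 6.35 CPM (log2 fold change -0.03, SE 0.104, adjusted p = 0.886, edgeR). The diets overlapped for both genes. The 95% intervals of the end-joining genes reached at most 0.29 (*Prkdc*) and as low as -0.25 (*Xrcc4*), so that increases of the size seen for *Palb2* lie outside them, while those of the size of *Msh6* do not.

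Homologous recombination and Fanconi genes were then set beside mismatch and end-joining genes. Of the first, 6 of 26 were called higher, with a median log2 fold change of 0.17 and 21 genes above 0. Of the second, 1 of 6 was called higher, with a median of 0.10 and 5 genes above 0. The score of the 26 genes was 0.07 ± 0.0642 in CDD and -0.07 ± 0.0462 in ND brains, and that of the 6 genes 0.05 ± 0.0643 and -0.05 ± 0.0289 (SD, n = 4 each). Within each brain, the first score minus the second was 0.06, -0.00, 0.05 and -0.00 in CDD brains and -0.10, 0.07, -0.03 and -0.05 in ND brains. The means of this difference, 0.03 ± 0.0323 and -0.03 ± 0.0714, lay within the spread of the brains, and the diets overlapped, since ND replicate 2 had the highest value of all. A separation of the pathways by diet was therefore not detectable with 4 brains each. Without CDD replicate 2, 7 of 26 and 1 of 6 were called higher, with medians of 0.19 and 0.10.

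**Figure D4:**
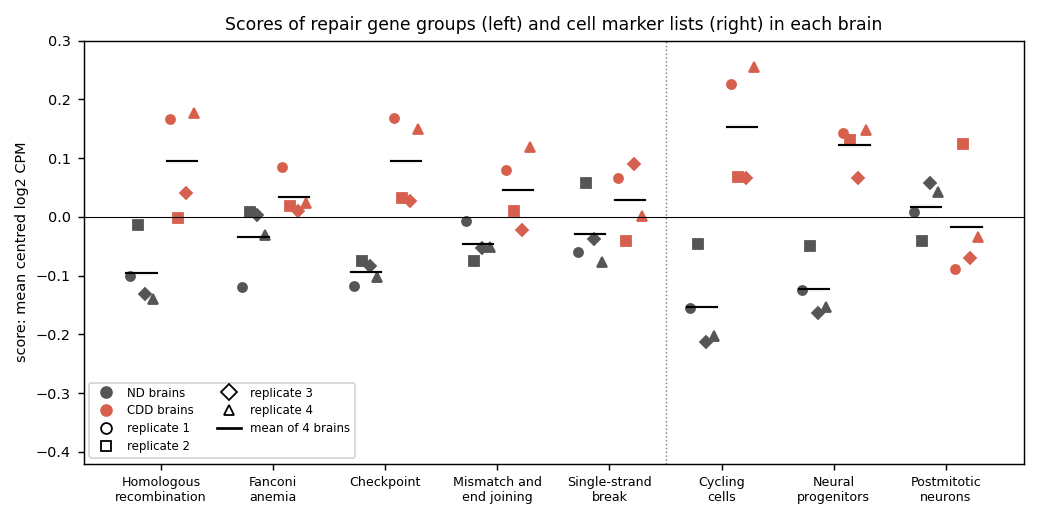
Score of each repair group and of 3 marker lists in each brain (log2 CPM centred gene by gene, averaged over the group), ND gray and CDD red, with symbols for the replicate and a line for the mean of 4 brains. The combined mismatch and end-joining group and the single-strand break group overlap between the diets, and the cycling-cell markers at the right are separated further than any repair group shown.

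Markers of cycling cells moved with the repair genes. Of 20 such markers, 16 were called higher in CDD and 0 lower, all 20 were above 0, and the median log2 fold change was 0.29. Their summed level was 1430 to 1750 CPM in CDD brains and 1157 to 1303 CPM in ND brains. The mitotic kinesin *Kif11* differed by a log2 value of 0.39 (adjusted p = 6.71e-04, edgeR), the mitotic cyclin *Ccnb1* 0.37 (0.00213) and *Top2a*, the topoisomerase of chromosome condensation, 0.44 (0.00287). The score of the 26 recombination and Fanconi genes minus that of the cycling markers was -0.08 ± 0.0423 in CDD and 0.08 ± 0.0449 in ND brains (SD, n = 4 each), without overlap. Both scores were higher with CDD, by 0.145 for the 26 repair genes and by 0.308 for the cycling markers. Expression per cycling cell was not measured. Of 12 neural progenitor markers, 5 were higher and 0 lower, with a median of 0.22 (*Hmga2*, 0.74, *Nes*, 0.47, and *Prom1*, 0.36, had the smallest p). Of 12 neuron markers, 0 were higher and 2 lower (*Snap25*, -0.23, and *Gap43*, -0.18), with a median of -0.05. Of 10 erythroid markers, 2 were higher (the embryonic globins *Hbb-y*, 2.24, and *Hba-x*, 1.67) and 0 lower, while 6 lay below 0 and the median was -0.28. Without CDD replicate 2, 16 cycling markers (median 0.31) and 7 progenitor markers (0.22) were higher and 4 neuron markers (-0.05) were lower. The part of these markers in the repair gene differences was not tested.

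Other genes of the same pathways were read from lists of 109 symbols, of which 108 were tested. Among these, 16 (14.8%) were called higher and 1 lower, with a median log2 fold change of 0.06. Over all genes tested, 4.24% were higher and 4.59% lower. Without CDD replicate 2, 12 of the 108 were higher and 1 lower, where 3.15% of all genes tested were higher. In the homologous recombination list, the genes called higher among 24 included *Fignl1*, an ATPase of the pathway (0.35, adjusted p = 0.00605, edgeR), the resolvase *Gen1* (0.35), the helicase *Mcm8* (0.30) and the BLM partner *Top3a* (0.26). *Rad54l2* (0.20) was also called higher in this list, though its part in recombination was not examined. *Zfp365* was the 1 gene called lower (-0.39, adjusted p = 0.012, edgeR). Without CDD replicate 2, 5 of the 24 were higher, *Top3a* was not called, and *Zfp365* was still lower. *Fignl1* stood at 22.7 ± 2.10 CPM in CDD and 17.8 ± 0.750 CPM in ND brains (SD, n = 4 each), without overlap, and was called without each brain in turn.

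In the Fanconi list, 2 of 7 were higher: *Usp1*, which removes ubiquitin from FANCD2 (0.30, adjusted p = 0.00344, edgeR), and the nuclease *Fan1* (0.23, 0.0489). Without CDD replicate 2, only *Usp1* was called. In the checkpoint list, 4 of 15 tested were higher, namely *H2ax*, the histone variant phosphorylated around breaks (0.32, adjusted p = 7.78e-04, edgeR), the clamp subunit *Hus1* (0.24), the fork protection gene *Timeless* (0.20) and the phosphatase *Cdc25a* (0.21). Without CDD replicate 2, 5 of 15 were higher, among them these 4. Of 6 further mismatch genes, 1 was higher (0 without CDD replicate 2), and all 6 lay above 0 with a median of 0.05. None of 11 further end-joining genes was called (median 0.03, 2 with an unadjusted p under 0.05 higher and 1 lower), as was the case for 11 translesion genes (median -0.01, 0 with an unadjusted p under 0.05). Of all genes tested, 11.8% had an unadjusted p under 0.05 higher and 12.1% lower. Base excision had 2 of 18 higher (*Lig1*, 0.16, and *Tdg*, 0.15). Nucleotide excision had 1 of 16 (*Ddb1*, 0.19), or 6.25%, where 4.24% of all genes tested were higher. None of *Lig1*, *Tdg* and *Ddb1* was called without CDD replicate 2. In that fit, base excision had 1 of 18 higher and nucleotide excision 0 of 16.

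Targets that p53 induces after damage moved in both directions. Of 15 tested, 4 were higher (*Btg2*, 0.35, *Trp53inp1*, 0.24, *Ccng1*, 0.22, and *Zmat3*, 0.15) and 2 were lower (*Phlda3*, -0.41, and *Bbc3*, which encodes the apoptotic factor PUMA, -0.32), with a median of 0.09. Without CDD replicate 2, 2 were higher (*Btg2* and *Ccng1*) and 1 lower (*Phlda3*). Over all genes tested, the shares with all 8 brains were 4.24% higher and 4.59% lower. *Cdkn1a*, the gene of the cell cycle inhibitor p21, was at 15.3, 16.6, 17.0 and 15.3 CPM in CDD brains and 14.2, 8.03, 13.5 and 7.13 CPM in ND brains. The 4 CDD values all exceeded the 4 ND values, but the ND brains were widely spread, and the difference did not pass the test (log2 fold change 0.58, SE 0.231, adjusted p = 0.183, edgeR).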

How the data were processed

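Per the labels, messenger RNA of 8 embryonic brains was captured on poly-T beads and read on Illumina instruments. The submitters' processing notes name HISAT2 2.0.5, featureCounts 1.5.0-p3 and DESeq2 1.20.0. The deposited table holds raw counts per gene, made by the authors with no normalization, and FPKM values, in which the authors divided counts by gene length and library size. The genome build and the strand setting were not given in the sources used here. Columns of the authors' own comparison (fold changes and p-values) were not used.

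Counts were tested with edgeR 4.0.16 (R 4.3.3) after filterByExpr, with TMM normalization, a robust quasi-likelihood fit on diet and Benjamini-Hochberg adjustment over 19367 genes at 0.05. CPM used the TMM library sizes, and log2 CPM a prior count of 2. FPKM served only to compare levels between genes. On simulated counts of 19108 genes at this design, 20 of 66 genes changed by 0.3 (log2) were called, 44 of 66 changed by 0.6 and 55 of 61 changed by 1, and 6 unchanged genes were called. No other genes were changed, so the simulation held far fewer changes than were called in the data. The biological coefficient of variation was 0.0814. No 2 libraries agreed within sampling noise.

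The alternatives were DESeq2 1.42.0, RLE and upper-quartile normalization, no filter, at least 10 counts in every brain, limma-voom (limma 3.58.1), a replicate block, a gene length offset (loess, span 0.3) and leaving out each brain. The 41 members, their groups and the further lists were chosen with earlier results of these data known. Values in every brain were given for each called member and for each mismatch, single-strand break and end-joining member. Other repair genes were named where called, except some that are not reported here, and *Cdkn1a* was named after its values were seen. Of each marker list, up to 3 genes of the smallest p were named, and for p53 targets the called ones. Promoters were matched by symbol in RefSeq windows of GRCm38.p6, with none for 7 members.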

Additional observations from a re-analysis of the deposited data

Results flagged for a closer look

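In 3 of 106 groups of 4 brains, a single brain stood away from the other 3 by Dixon's criterion at the 95% level. Chance alone gives about 1 in 20 such groups, or 5.3 here. *Rad54b* was at a log2 CPM of 3.76 in CDD replicate 4, against 3.48 to 3.50 in the other CDD brains. *Fancc* was at 3.80 in CDD replicate 1, against 3.66 to 3.68. *Parp1* was at 7.98 in CDD replicate 4, against 7.84 in each of the others, and without that brain *Parp1* was still called higher.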

How the results depend on the processing

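Under the 8 settings other than leaving out a brain, the count of called members was 10 to 16 (10 with upper-quartile normalization and with limma-voom, 16 with no filter on low counts, of which 1, *Fancg*, was lower), and the medians of both pathway groups moved by less than the spread between replicates. Leaving out each brain gave 2 to 14 called members and 471 to 2495 called genes of all tested, medians of 0.15 to 0.21 for recombination and Fanconi genes and 0.10 to 0.14 for mismatch and end-joining genes, and a score difference of 0.03 to 0.08. With the gene length offset, 1203 genes of all tested were higher and 870 lower, against 822 and 888. The deviations of same-numbered brains correlated with r = 0.105, -0.133, 0.117 and 0.232, and 3 of 4 CDD brains, all but replicate 2, correlated best with the ND brain of their number. As 1 pair was negative and the labels tie no number to a litter or batch, the numbers were not taken to pair the brains. With a replicate block, 12 members and 1812 genes were called. The score difference was not computed with DESeq2 or limma-voom.

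Members near 0 turned sign: *Fance* with DESeq2 (0.00399), RLE normalization (0.0027), no filter (6.37e-04) and the length offset (0.034), and *Rad51d* (0.00185), *Atr* (-0.00488) and *Xrcc1* (0.00878) with the length offset. Over the brains left out, the ranges of members that turned were -0.284 to 0.0135 for *Rad51b*, -0.0611 to 0.0125 for *Rad51d*, -0.0301 to 0.0367 for *Fance*, -0.0145 to 0.0906 for *Fancf*, -0.0281 to 0.0683 for *Fancm*, -0.0309 to 0.0759 for *Atm*, -0.00947 to 0.0847 for *Atr*, -0.0389 to 0.0383 for *Xrcc1*, -0.0622 to 0.0279 for *Tdp1* and -0.0915 to 0.0549 for *Xrcc4*. The cause was not tested. In the simulated data, 20 of 66 changes of 0.3 (log2) were called. Far fewer genes were changed there than the 1710 called in the data, so an adjusted p under 0.05 asked for a smaller unadjusted p. That rate therefore does not carry over to the members, and a member that was not called may still differ.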
